A study of Mus musculus with 4 samples.

Results

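A set of 10 genes by which liver endothelium signals to its neighbours, or through which it reads Notch ligands, was described in liver RNA from obese mice. The members were Wnt2, Wnt9b, Rspo3, Gata4, Hgf, Dll4, Jag1, Notch1, Hes1 and Angpt2. They were taken by symbol from the 24346 gene symbols listed for each library, and all 10 were found and were above 0 in all 4 libraries. All mice were male ob/ob animals, which lack functional leptin, were 6 weeks old when feeding began and ate the diets for 4 weeks. The CD group ate a regular chow diet and the WD group a high fat, high cholesterol diet, and the CD+7KC and WD+7KC groups ate the same diets with 0.01% 7-ketocholesterol (7KC), an oxidised form of cholesterol. Every diet held 1% cholesterol, so the chow controls were also fed cholesterol. No lean or leptin-competent mice are among these libraries. Each group was 1 whole-liver library, and the number of mice behind a library was not given in the sources used here, so no comparison has a spread between replicates and no p-value was computed.

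Sinusoidal endothelial cells line the capillaries of the liver and release angiocrine factors, secreted signals that act on hepatocytes. Wnt2, Wnt9b and Rspo3 are released mainly around the central vein, where Wnt ligands bind Frizzled receptors and R-spondins keep those receptors on the hepatocyte surface, so that beta-catenin target genes such as Glul are expressed there. GATA4 is a transcription factor that maintains sinusoidal identity, HGF is a growth factor that acts on hepatocytes through the receptor MET, and angiopoietin-2 modulates the TIE2 receptor of endothelium. In Notch signalling a ligand on one cell, such as DLL4 or JAG1, binds a receptor such as NOTCH1 on the next cell, and the cleaved receptor joins RBPJ to switch on targets such as Hes1. Hgf is also made by stellate cells, and Jag1, Notch1 and Hes1 are also expressed outside endothelium.

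Levels were the deposited FPKM values (fragments per kilobase of transcript, scaled to the mapped fragments of the library), a scale that corrects for gene length. Spacing of the low values put the depth between 9400000 fragments (WD) and 12110000 (WD+7KC). Where 4 values follow one another with no library named, their order is CD, CD+7KC, WD, WD+7KC. A change is given as the FPKM ratio, with a 95% exact interval that covers counting error only, or as the log2 ratio after adding 0.1 FPKM to both values. A log2 change above 1 or below -1 was called. The study listed genes by a log2 fold change above 1, and the lower limit and the added 0.1 FPKM, which makes the limit stricter for low genes, were set here. As deposited, the median gene differed by 0.002 on the log2 scale between WD+7KC and WD, and after rescaling every library to an equal sum it was 0.21 higher in WD+7KC.

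The DNA just before the start of the 3 signalling genes whose level differed most between 7KC and control under the same diet and that had an entry in the promoter table is shown here, so that the reader has the regulatory sequence beside the levels. Both Wnt genes and Dll4 are given 5′ to 3′ on the strand of the gene, from RefSeq on build GRCm38.p6, and capitals mark a searched motif. Gene positions in the text are on GRCm38, the assembly behind mm10. Wnt2 lies on chromosome 6 (17988940 to 18030585, minus strand), and the stretch before its 2 annotated starts covers chr6:18030586-18030695. The Wnt9b stretch covers chr11:103749822-103750071 on the minus strand and the Dll4 stretch chr2:119325534-119325783 on the plus strand.
Wnt2 upstream: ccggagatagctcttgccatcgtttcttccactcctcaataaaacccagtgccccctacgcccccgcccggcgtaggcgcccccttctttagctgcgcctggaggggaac
Wnt9b upstream: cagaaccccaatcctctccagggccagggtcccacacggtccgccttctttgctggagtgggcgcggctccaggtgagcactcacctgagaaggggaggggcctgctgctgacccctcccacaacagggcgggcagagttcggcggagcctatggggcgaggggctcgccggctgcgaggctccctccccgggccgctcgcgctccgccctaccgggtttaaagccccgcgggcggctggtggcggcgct
Dll4 upstream: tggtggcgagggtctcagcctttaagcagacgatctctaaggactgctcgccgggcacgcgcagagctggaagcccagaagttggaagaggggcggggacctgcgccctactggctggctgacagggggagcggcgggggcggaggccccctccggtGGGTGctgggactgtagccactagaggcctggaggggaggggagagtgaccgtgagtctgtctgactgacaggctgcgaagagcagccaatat

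Short motifs were searched on both strands in the 250 bases before each start: GATAA (read by GATA factors), TGGGAA (RBPJ), CACCC (Kruppel-like factors), ACAAT (SOX factors) and CCGGAA (ETS factors). Wnt2 held GATAA on the reverse strand at 2 places, 40 and 9 bases before its RefSeq start, where it reads TTATC on the strand of the gene. They are shown with their flanks, from chr6:18030471-18030495 and chr6:18030446-18030464. These places lie inside a longer GENCODE first exon, so the letters are annotated as transcribed in that gene model.
Wnt2 site at 40 bases: gggctgccctTTATCgctcgctggg
Wnt2 site at 9 bases: ttttgaaactTTATCagtg

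GATAA occurred in 22.6% of the 32851 promoter windows of that length. The Dll4 stretch held CACCC on the reverse strand (capitals) 93 bases before the start, Wnt2 held it on the reverse strand at 130 bases, and it was present in 52.0% of windows, while the Wnt9b stretch held none of the searched motifs. Hgf held TGGGAA 39 bases and CACCC 208 bases before its first start, Jag1 held ACAAT at 163 bases and Notch1 held CACCC at 224 bases. TGGGAA occurred in 21.6%, ACAAT in 27.7% and CCGGAA in 12.0% of windows. A match is only a description of the letters.

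The labelled tissue was checked first against marker genes. The 9 hepatocyte markers measured had a summed level of 61637 to 85172 FPKM, and all 22 endothelial markers (12 of sinusoidal and 10 of all endothelium) were above 0 in every library. The endothelial markers summed to 156 FPKM in CD and 129.7 in WD, and with 7KC to 216 in CD+7KC and 337 in WD+7KC. The sum was higher with 7KC on both diets, and highest in WD+7KC. Relative to CD, the summed sinusoidal markers were 1.54, 0.87 and 2.41 in CD+7KC, WD and WD+7KC. Macrophage and Kupffer cell markers summed to 206 FPKM in CD and 385 in WD without 7KC, and to 341 and 731 with it. Relative to CD, the markers of continuous endothelium were 0.78, 1.01 and 1.36 in CD+7KC, WD and WD+7KC, and those of lymphocytes and neutrophils 0.90, 0.70 and 0.97. Stellate markers, which bear on Hgf, summed to between 235 and 283 FPKM, of which Dcn alone was 118 to 145. With 7KC on CD, 8 of the 13 stellate markers were lower and 5 higher. In a piece of whole liver, fewer cells of a type and less RNA per cell cannot be told apart.

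**Figure D1:**
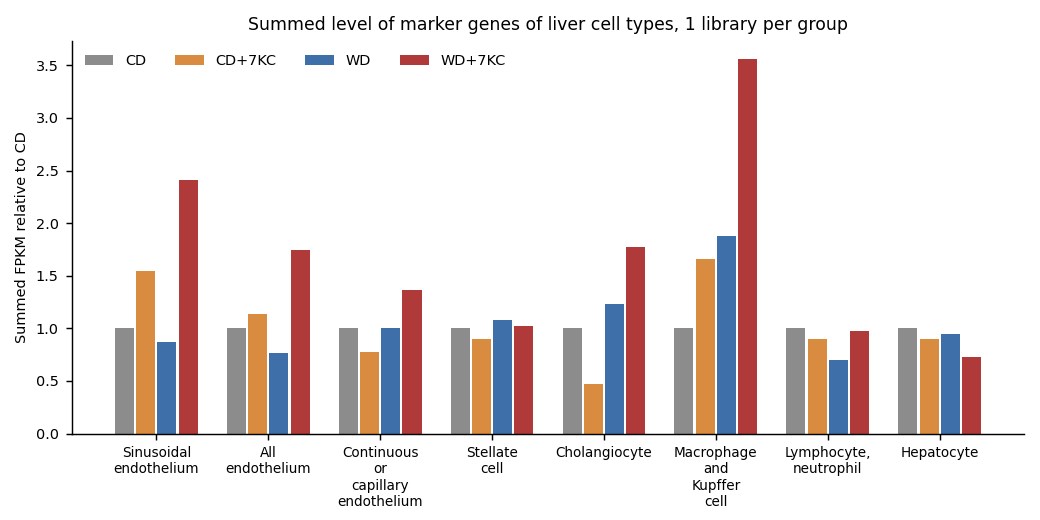
Summed FPKM of marker genes of 8 groups of liver cells (horizontal axis) in the 4 libraries (bars, 1 library per group), each divided by the CD library. The sinusoidal endothelium bar of WD+7KC stands at 2.41 and the macrophage and Kupffer cell bar at 3.56, while the stellate cell bar stands at 1.02. The cholangiocyte bars are mostly Spp1 and the continuous endothelium bars mostly Plvap, and Dcn is the largest part of the stellate cell bars.

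Among the 10 genes, Hes1 had the highest level in every library, followed by Gata4, Rspo3, Hgf and Notch1 in the same order in all 4 libraries, and Wnt9b had the lowest. Neighbours in this order often could not be separated: of the 7 neighbouring pairs in each library that did not involve Hgf, the counting intervals overlapped in 5 pairs of CD, 6 of CD+7KC and 4 each of WD and WD+7KC. The order of the lower genes differed between libraries. Wnt2 was 9th of 10 in CD and 6th in WD+7KC.

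**Figure D2:**
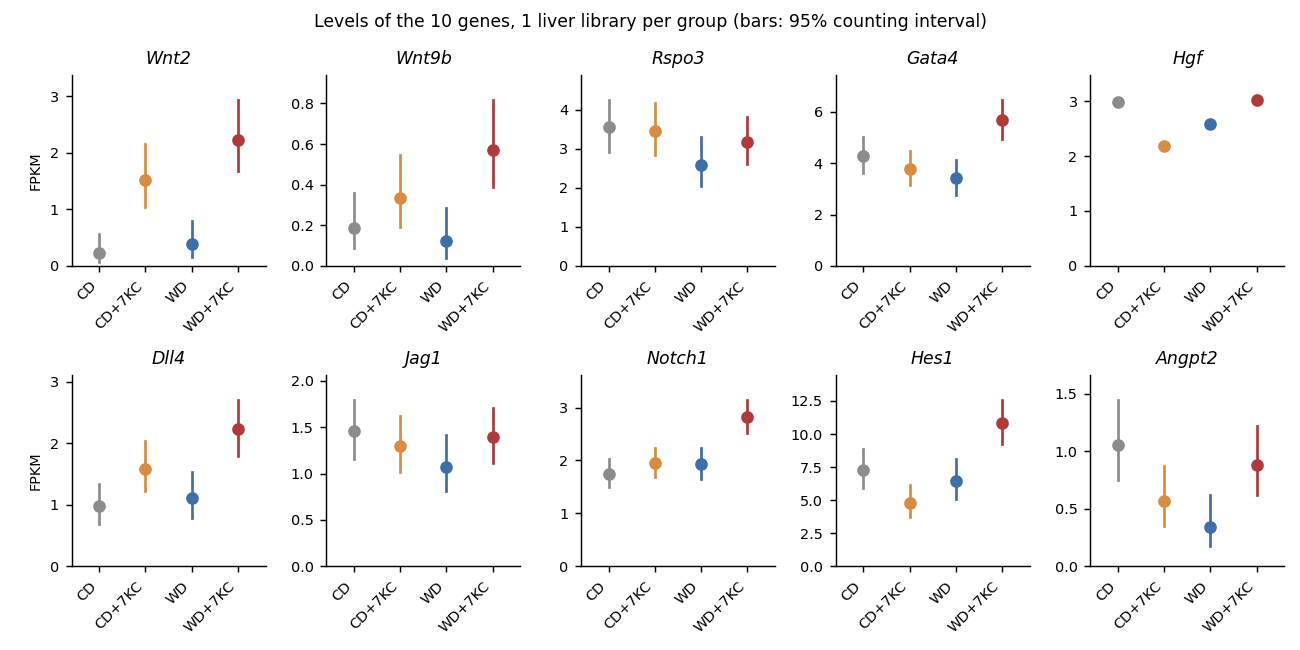
FPKM (vertical axis, from 0, scaled separately for each gene) of the 10 genes in the 4 libraries (horizontal axis). Points are single libraries and vertical lines are 95% counting intervals, which are not drawn for Hgf because its mRNAs differ in length. Wnt2 stands at 0.238 and 0.387 without 7KC and at 1.515 and 2.23 with it, and Rspo3 stays between 2.60 and 3.56.

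On WD, addition of 7KC went with a higher value of all 10 genes, and 3 of the 10 passed a log2 change of 1, namely Wnt2, Wnt9b and Angpt2. With 1 FPKM added in place of 0.1, Wnt2 alone passed, with Wnt9b and Angpt2 at 0.48 each. Of all 15753 genes tested, 6.21% passed in this direction and 2.79% in the other. The median change of the 10 genes was 0.73 on the log2 scale, and the counting interval of the ratio lay above 1 for 7 of the 9 genes that have one. On CD it lay above 1 for 2 of the 9 and below 1 for 2. Over all genes with a single RefSeq mRNA and at least 1 read, it lay above 1 for 13.8% and below 1 for 16.8% on WD, and above 1 for 11% and below 1 for 12.8% on CD. These shares include genes with too few reads for an interval to exclude 1, so they are not matched to the members in reads. On CD, addition of 7KC went with a higher value of 4 genes and a lower value of 6, and only Wnt2 was called, where 3.84% of 15684 genes were called higher and 2.91% lower. The median change on CD was -0.10. Each of these libraries also enters the comparisons between diets, so those values are not independent of the ones above.

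Without 7KC, the WD library had a lower value than CD for 7 of the 10 genes and a higher one for 3, with a median of -0.26, and Angpt2 alone was called, in the lower direction, in which 4.38% of 15597 genes were called (5.31% in the other). Between the diets with 7KC, 9 genes were higher in WD+7KC and Rspo3 was lower, with a median of 0.52, and Hes1 alone was called, where 8.01% of 15898 genes were called higher and 4.61% lower. After rescaling to equal sums that median was 0.73 and Rspo3 was higher by 0.08 on the log2 scale, not lower. The median ratio of the 22 endothelial markers was 0.848 between the diets without 7KC and 1.64 with it.

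Wnt2, a central-vein Wnt ligand, was the gene that differed most. It stood at 0.238 FPKM in CD and 0.387 in WD without 7KC, and at 1.515 in CD+7KC and 2.23 in WD+7KC, from an estimated 5.0, 7.0, 31.9 and 51.8 reads in that order. Both libraries with 7KC lay above both without it. The ratio with 7KC was 6.38 (95% interval 2.47 to 21.0) on CD and 5.78 (2.61 to 15.05) on WD, each a log2 change of 2.26. Between the diets Wnt2 did not differ beyond counting error, with ratios of 1.63 (0.446 to 6.52) without 7KC and 1.47 (0.931 to 2.37) with it.

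Wnt9b (chromosome 11, 103727364 to 103749821), the other central-vein ligand, stood at 0.189 FPKM in CD and 0.122 in WD without 7KC, and at 0.335 in CD+7KC and 0.570 in WD+7KC. The reads behind these values were few, an estimated 8.9 and 5.0 without 7KC and 15.9 and 29.8 with it. On WD the ratio with 7KC was 4.67 (1.79 to 15.4), and on CD it was 1.77 (0.738 to 4.55), which includes 1. Within a library, the level of Wnt2 was 1.26 times that of Wnt9b in CD, and 4.52, 3.16 and 3.92 times in CD+7KC, WD and WD+7KC.

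Rspo3 (chromosome 10, 29452416 to 29535867), the R-spondin of the central vein, varied less than both Wnt ligands. It stood at 3.56 FPKM in CD and 2.60 in WD without 7KC, and at 3.47 in CD+7KC and 3.18 in WD+7KC, a range of 1.37-fold over the 4 libraries. Its ratio with 7KC was 0.973 (0.746 to 1.29) on CD and 1.22 (0.893 to 1.66) on WD, and no comparison of Rspo3 excluded 1. On CD the sign of its log2 change was negative as deposited and positive after rescaling to equal sums. Rspo3 was 14.99 times the level of Wnt2 in CD and 1.42 times in WD+7KC.

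The partners of these ligands were taken from lists. Of 10 other Wnt ligands above 0 in WD or WD+7KC, 7 were higher and 3 lower with 7KC, none was above 1 and 1 was below -1. Of all genes 50.2% were higher, 6.21% passed 1 and 2.79% passed -1. The ligand below -1 was Wnt6, at only 0.113 FPKM in WD and 0 in WD+7KC. Wnt5b, which acts mainly outside beta-catenin signalling, was the only one of the 10 at 1 FPKM or more. It stood at 2.28, 2.27, 3.92 and 2.83 FPKM in CD, CD+7KC, WD and WD+7KC. Wls, the carrier that all Wnt ligands need for secretion, stood at 1.46, 2.58, 2.29 and 3.07 FPKM. Among 15 R-spondins and receptors of Wnt and R-spondin, 7 were higher and 8 lower on WD, with a median of -0.00. Lrp5, a Wnt co-receptor, was the highest of them in log2 change at 1 FPKM or more (0.37) and the Frizzled receptor Fzd6 the lowest (-0.52). The receptors Lgr4 and Lgr5, which bind R-spondins, stood at 8.14, 6.96, 7.03 and 5.49 FPKM and at 0.684, 0.762, 0.655 and 0.637 FPKM.

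The genes that hepatocytes switch on in response to these ligands were counted next. Of 16 pericentral Wnt targets, 14 were higher and 2 lower with 7KC on CD (median 0.29, 1 called), and on WD 8 were higher and 8 lower (median 0.00, 0 called). The share of all genes called higher was 3.84% on CD and 6.21% on WD, and lower 2.91% and 2.79%. Between the diets with 7KC, 4 of the 16 were higher and 12 lower in WD+7KC (median -0.24), and Cyp1a2 (-1.56) and Cyp2a5 (-1.47), both cytochrome P450 genes, were called lower, where 4.61% of all genes were. Over all genes tested, 49.3% were higher on CD and 50.2% on WD. Glul, glutamine synthetase, stood at 262 FPKM in CD and 309 in WD without 7KC, and at 281 in CD+7KC and 314 in WD+7KC. Axin2, a feedback inhibitor induced by beta-catenin, stood at 1.30, 1.69, 1.64 and 1.52 FPKM. The extremes of the list on WD were Oat, ornithine aminotransferase, with a log2 change of 0.53, and the cytochrome P450 gene Cyp2e1 with -0.86. Sp5, a transcription factor induced by Wnt, was the gene called on CD, with 0.575 FPKM in CD and 1.34, 1.34 and 1.30 in CD+7KC, WD and WD+7KC. Among 7 Wnt inhibitors above 0 on WD, 3 were higher and 4 lower, and Notum, a secreted enzyme that inactivates Wnt ligands, stood at 6.50, 9.52, 9.02 and 7.64 FPKM.

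Gata4 (chromosome 14, 63198922 to 63271692), the sinusoidal transcription factor, stood at 4.29 FPKM in CD and 3.41 in WD without 7KC, and at 3.77 in CD+7KC and 5.68 in WD+7KC. WD+7KC was the highest library and the other 3 were close to each other. Its ratio with 7KC was 1.67 (1.32 to 2.14) on WD and 0.878 (0.689 to 1.12) on CD, and between diets with 7KC it was 1.51 (1.21 to 1.89). None of these reached a log2 change of 1. Gata4 has 2 linked RefSeq mRNAs, and its intervals rest on the length of the longest linked transcript. Gata6, the related factor, stood at 2.12, 2.75, 2.93 and 2.77 FPKM and was the lowest of 23 other endothelial factors in log2 change on WD, at -0.08 among those at 1 FPKM or more. Of these 23, 21 were higher and 2 lower with 7KC on WD, and 8 passed a log2 change of 1, with a median of 0.90, where 6.21% of all genes passed and 50.2% were higher. Kit, a receptor of central-vein endothelium and mast cells, led them with 0.638, 0.637, 0.212 and 1.80 FPKM.

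Hgf (chromosome 5, 16553495 to 16620152), the hepatocyte growth factor, stood at 2.98 FPKM in CD and 2.58 in WD without 7KC, and at 2.18 in CD+7KC and 3.03 in WD+7KC, a range of 1.39-fold. Its ratio with 7KC was 0.733 on CD and 1.17 on WD, and no interval is given because 4 mRNAs of different length are linked to the gene. Its receptor Met was highest in CD, at 14.97 FPKM, against 10.998 in CD+7KC, 9.84 in WD, and 9.56 for WD+7KC. Met was 5.02 times the level of Hgf in CD and 3.16 times in WD+7KC. Among 11 genes of HGF activation and its receptor, 4 were higher and 7 lower with 7KC on each diet. Plau, urokinase, which activates pro-HGF, had the largest log2 change on WD among those at 1 FPKM or more, 0.89. Of all genes, 49.3% were higher with 7KC on CD and 50.2% on WD.

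The Notch ligands Dll4 and Jag1 exchanged order. Dll4 (chromosome 2, 119325784 to 119335962), the endothelial ligand, stood at 0.978 FPKM in CD and 1.10 in WD without 7KC, and at 1.59 in CD+7KC and 2.22 in WD+7KC, higher with 7KC on each diet. Jag1 (chromosome 2, 137081456 to 137116644), a ligand also made outside endothelium, stood at 1.46 FPKM in CD and 1.08 in WD without 7KC, and at 1.30 and 1.39 with it. Dll4 was 0.671 times the level of Jag1 in CD and 1.59 times in WD+7KC. In WD+7KC the counting interval of Dll4 did not overlap that of Jag1, and in CD they overlapped. The ratio of Dll4 with 7KC was 1.62 (1.07 to 2.50) on CD and 2.01 (1.35 to 2.998) on WD. On the log2 scale with 0.1 FPKM added the change on WD was 0.95, just under the threshold, and over 7 other settings of scaling and pseudocount it ran from 0.61 to 1.18 and passed 1 in 5 of them. The ratio of Jag1 included 1 in all 4 comparisons and was 1.30 (0.902 to 1.83) for 7KC on WD.

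Notch1 (chromosome 2, 26457903 to 26516663), a receptor for both ligands, stood at 1.75 FPKM in CD and 1.93 in WD without 7KC, and at 1.96 in CD+7KC and 2.82 in WD+7KC. Only WD+7KC stood apart. Its ratio with 7KC was 1.12 (0.906 to 1.37) on CD and 1.46 (1.21 to 1.78) on WD. Notch4, an endothelial receptor, was lower in level and had a larger ratio, at 0.467, 0.678, 0.280 and 1.05 FPKM, a log2 change of 1.60 on WD. Notch2, the main receptor of the biliary lineage, stood at 3.54, 2.81, 3.47 and 4.21 FPKM, and Notch3, a receptor of mural cells, stayed between 0.340 and 0.386 FPKM. Of the 6 other Notch receptors and ligands tested on WD, 4 were higher and 2 lower, where 50.2% of all genes were higher.

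Hes1 (chromosome 16, 30064384 to 30067796), a repressor that Notch and other signals induce, stood at 7.29 FPKM in CD and 6.44 in WD without 7KC, and at 4.79 in CD+7KC and 10.8 in WD+7KC. It was lowest in CD+7KC and highest in WD+7KC, so the values with 7KC lay on either side of those without. Its ratio with 7KC was 0.658 (0.478 to 0.910) on CD and 1.68 (1.27 to 2.22) on WD, and neither interval included 1. Between the diets with 7KC the ratio was 2.25 (1.68 to 3.03), a log2 change of 1.16, which was called. Of the 10 other Notch targets on WD, 9 were higher and 1 lower (median 0.40), where 50.2% of all genes were higher. Only 4 of these targets were at 1 FPKM or more, and the median of the 22 endothelial markers was 1.51. Efnb2, an arterial ephrin, stood at 1.17, 1.27, 0.717 and 1.53 FPKM and Hey1, a Notch-induced repressor, at 0.318, 0.362, 0.422 and 0.738. Of 23 genes of Notch processing and its core complex, 16 were higher and 7 lower on WD, with a median of 0.14. Among those at 1 FPKM or more the median was 0.05. Of the 23, 2 were called higher, where 6.21% of all genes were. Lfng, a glycosyltransferase that modifies Notch receptors, was 1.27, 1.39, 1.37 and 3.87 FPKM, and Rbpj was 3.55, 3.34, 3.05 and 2.98 FPKM.

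Angpt2 (chromosome 8, 18690263 to 18741562), the angiopoietin that endothelium releases, was lower with 7KC on CD and higher with 7KC on WD, a difference that was not tested. It stood at 1.05 FPKM in CD and 0.346 in WD without 7KC, and at 0.566 in CD+7KC and 0.880 in WD+7KC. The highest library was CD and the lowest was WD, and with 7KC the diets were closer. The ratio of WD to CD was 0.328 (0.152 to 0.654), a log2 change of -1.37, which was called. With 7KC the ratio was 0.537 (0.300 to 0.936) on CD and 2.54 (1.27 to 5.53) on WD. The reads were an estimated 38.8 and 10.9 without 7KC and 20.9 and 35.8 with it. The receptor Tek (TIE2) stood at 1.52, 2.48, 1.57 and 4.50 FPKM, and Angpt1, the other ligand, at 0.221, 0.110, 0.308 and 0.339. The level of Angpt2 was 4.78 times that of Angpt1 in CD and 1.12 times in WD. Of 11 genes of the angiopoietin and VEGF axis, 10 were higher with 7KC on WD and 6 were called, with a median of 1.37, and Kdr, the VEGF receptor, led them with 1.95. Of all genes 50.2% were higher and 6.21% were called higher on WD. Tek, Tie1, Kdr and Flt4, which are 4 of those 6, are also among the 22 endothelial markers.

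**Figure D3:**
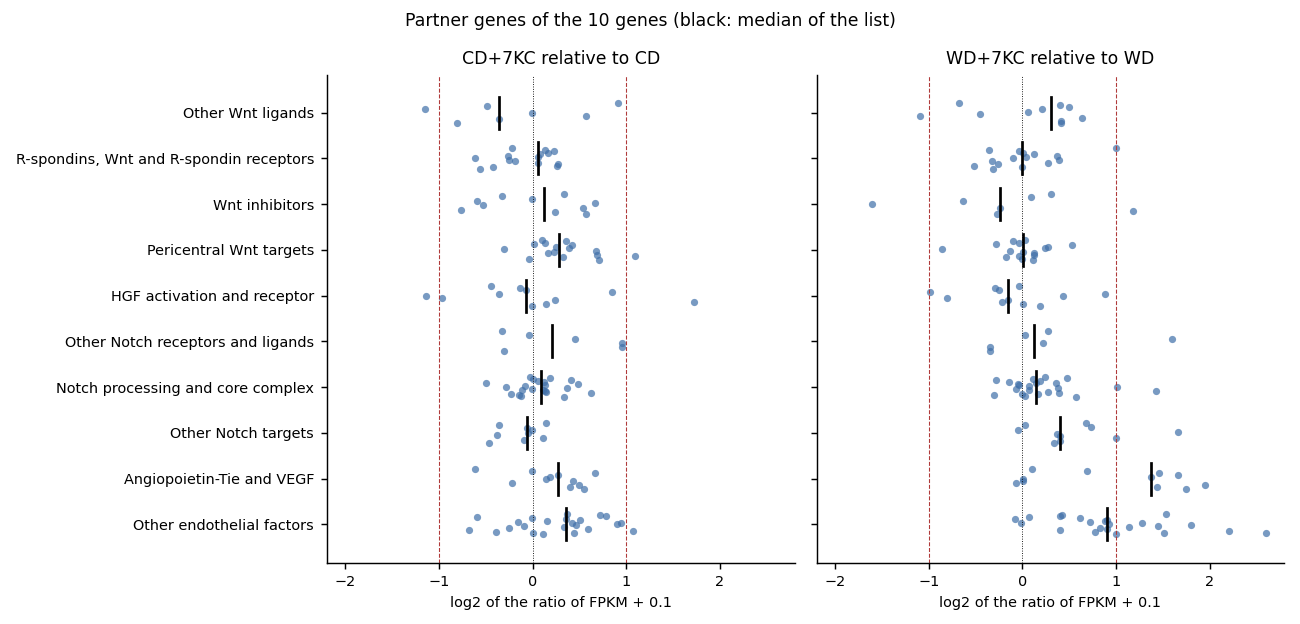
Log2 change with 7KC on CD (left) and on WD (right) of the partner genes of the 10 genes, after adding 0.1 FPKM (horizontal axis). Points are genes, black bars are list medians, dotted lines mark 0 and dashed lines the threshold of 1. The angiopoietin and VEGF list sits at a median of 1.37 and the other endothelial factors at 0.90 on WD, while the pericentral Wnt targets have a median of 0.00.

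Endothelial markers were also higher with 7KC, and the 10 genes were set beside them by FPKM ratio. With 7KC on WD, the 22 markers had ratios from 1.45 (Emcn) to 4.00 (Kdr) with a median of 2.90, and 22 of 22 were higher. Wnt2 and Wnt9b exceeded all 22 markers there, although on the scale with 0.1 FPKM added Wnt9b exceeded 16 of 22. The counting intervals of these ratios, 2.61 to 15.05 for Wnt2 and 1.79 to 15.4 for Wnt9b, both include the marker median of 2.90. Angpt2 exceeded 6 markers (5 with 0.1 FPKM added), Dll4 exceeded 4 (3), Hes1 2, Gata4 and Notch1 1 each, and Rspo3, Hgf and Jag1 none. On CD the markers had ratios from 0.724 (Lyve1) to 2.10 (Dnase1l3) with a median of 1.34, and Wnt2 exceeded 22, Wnt9b 20 (16 with 0.1 FPKM added), Dll4 18 (17) and Hes1 and Angpt2 0. Between the diets with 7KC, Hes1 exceeded all 22 markers by ratio and 21 with 0.1 FPKM added. Its ratio of 2.254 was close to the highest marker ratio, 2.251 for Lyve1. The counting interval of Hes1, 1.68 to 3.03, included that marker ratio but not the marker median of 1.64. The part of the endothelial and macrophage markers in any of these differences was not tested.

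**Figure D4:**
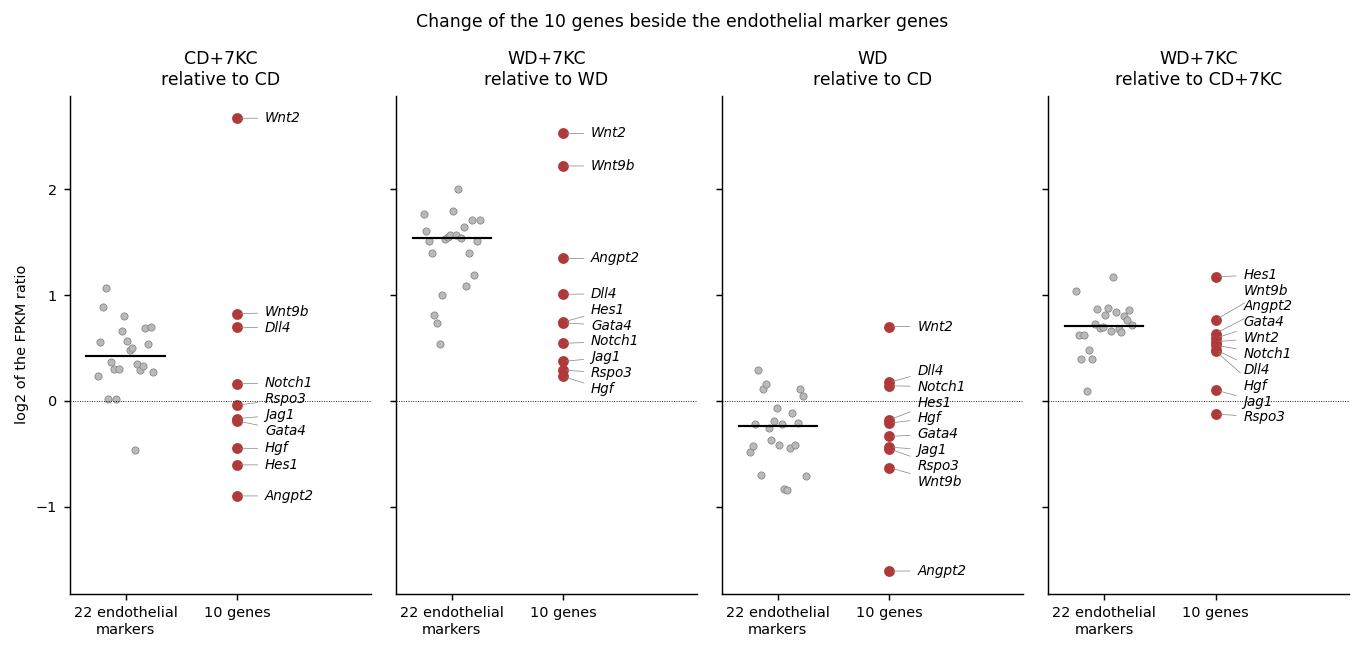
Log2 of the FPKM ratio (vertical axis) in the 4 comparisons for the 22 endothelial markers (grey, black line at their median) and the 10 genes (red, named). With 7KC on WD 8 of the 10 genes sit below the marker median, which is a ratio of 2.90, and Wnt2 and Wnt9b sit above every marker. Counting intervals are not drawn.

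As a share of the summed FPKM of the 22 markers, Wnt2 was 0.152% in CD and 0.298% in WD, and 0.700% and 0.664% with 7KC. It was thus also higher relative to the markers with 7KC, but counting error was not carried into these shares. Rspo3 was 2.28%, 1.60%, 2.01% and 0.945%, and Hgf 1.91%, 1.01%, 1.99% and 0.900%, both lower relative to the markers with 7KC on each diet. Gata4 (2.75% to 1.74% on CD, 2.63% to 1.69% on WD), Jag1, Notch1 and Hes1 were also lower on each diet. These shares divide whole-liver levels by a marker sum that was itself higher with 7KC. They do not give levels within endothelium for genes also expressed elsewhere, and the cells behind the Gata4 level were not tested. Angpt2 was 0.674% in CD and between 0.261% and 0.267% in the other 3 libraries, so on WD it was lower by little. Wnt9b was higher on both diets. Dll4 stayed between 0.626% and 0.852%, higher with 7KC on CD and lower on WD.

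Some genes of the whole series had a pattern like that of a member over the 4 libraries, measured by the distance between log2 levels centred on their mean (10686 candidates averaging 1 FPKM or more). For Wnt2 the nearest was Ms4a8a (distance 0.398), which stood at 0.311, 1.45, 0.482 and 1.97 FPKM, followed by Cdca8 (0.910) and Krt20 (0.920). For Dll4 they were Myo7a (0.107), Shank2 (0.119) and Filip1l (0.121), and for Hes1 they were Rce1 (0.072), Mid1 (0.088) and Loxl2 (0.093). These distances rest on 4 libraries, each of them shared by all genes, and are a description only.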

How the data were processed

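Liver RNA of ob/ob mice was sequenced in 4 libraries, 1 for each of CD, CD+7KC, WD and WD+7KC, from stranded mRNA libraries read from a single end in 75 bases. The authors mapped the reads to mm10 with TopHat2 2.0.13, Bowtie2 2.2.3 and SAMtools 0.1.19, computed FPKM with Cufflinks 2.2.1 and deposited 1 FPKM value per gene symbol; the annotation and options were not given in the sources used here. Groups came from the sample titles.

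Values were read with Python 3.11.15, numpy 2.4.6, pandas 2.3.3, scipy 1.17.1 and matplotlib 3.10.9. Log2 ratios used a pseudocount of 0.1 FPKM, over genes above 0 in at least 1 of the 2 libraries. The depth was estimated from the steps of low values over 14058 genes with a single RefSeq mRNA, as FPKM times (transcript length minus 200 bases), and 70.1 to 72.3% of low values then lay within 0.1 of a whole read. Lengths came from GENCODE vM21 with RefSeq starts, on the same build. Intervals of ratios are exact (Clopper-Pearson) and cover counting error only. They were run on simulated Poisson counts at the depths of WD+7KC and WD, with a set ratio for 200 genes averaging 1 FPKM or more. There 97.0% covered the set ratio. The same depths and lengths served to draw the counts and to compute the intervals, so the run cannot show error in either. It did not cover genes as low as Wnt9b. Alternatives were other pseudocounts, other scalings and a filter of 1 FPKM, and, added after seeing the data, no pseudocount and change relative to the endothelial markers.

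The members and lists were chosen with earlier results of these data known. Genes named beside the members were drawn from the highest and lowest of the lists among those at 1 FPKM or more and from the receptors and partners of the members, with marker lists given by sums; not every list extreme is named. For Wnt2, Dll4 and Hes1 the 3 genes of most like pattern are named. The listed markers Ly6g and Tf were not analysed here.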

Additional observations from a re-analysis of the deposited data

Results flagged for a closer look

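For 7 of the 10 genes the change with 7KC, or with WD, went one way under one condition and the other way under the other. With 1 library in each cell these differences were not tested. The share of all genes with such a change of direction was not computed, so the count of 7 is a description only. For the change with 7KC, the log2 change on WD minus that on CD was 1.93 for Angpt2, 1.33 for Hes1, 0.91 for Gata4, 0.66 for Hgf, 0.50 for Jag1 and 0.32 for Rspo3. For the change with WD, the log2 change in the presence of 7KC minus that in its absence was 1.003 for Wnt9b. Among the genes with a counting interval, only Hes1 and Angpt2 had intervals on opposite sides of 1 on CD and on WD. How many of all genes did the same was not computed. For Rspo3 the negative side, -0.04 on CD, changed sign after rescaling to equal sums.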

How the results depend on the processing

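No test was run, since each group is 1 library and leaving out a replicate is not possible; an additive model of diet and 7KC, which would leave 1 residual degree of freedom, was not run. No paired analysis was possible because the labels give no replicate numbers and no group has a second library. Of the 40 member changes, 38 kept their sign under the 7 other settings of scaling and pseudocount, and the 2 that did not were both of Rspo3. With a pseudocount of 1 FPKM, 1 of the 10 genes instead of 3 passed 1 with 7KC on WD, and 0 instead of 1 passed -1 in WD relative to CD. With Dll4, 4 passed on WD with a pseudocount of 0.01 FPKM or none, after rescaling to equal sums with or without the 20 genes of highest level, and after scaling to the upper quartile. The median of the 10 genes in WD+7KC relative to CD+7KC was 0.52 as deposited, 0.73 after rescaling to equal sums and 0.70 after rescaling without the 20 genes of highest level. Another scale, chosen after seeing the data, took each change relative to the median change of the 22 endothelial markers. With 7KC on WD 0 genes then passed 1, 3 passed -1 and the median was -0.78. All but Wnt2 (0.76) and Wnt9b (0.09) were negative there, from -0.37 for Angpt2 to -1.28 for Hgf. On that scale 2 genes passed -1 with 7KC on CD, and in WD+7KC relative to CD+7KC 0 passed 1 and the median was -0.19.

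All genes past 1 or -1 numbered 1059 for 7KC on CD, 1418 for 7KC on WD, 1511 between diets without 7KC and 2007 with it. With a pseudocount of 1 FPKM they numbered 113, 189, 287 and 541, and among genes at 1 FPKM or more 287, 521, 602 and 1043. Rescaling to equal sums raised list medians. With 7KC on WD those of other Wnt ligands went from 0.31 to 0.52, pericentral targets from 0.00 to 0.22, sinusoidal markers from 1.54 to 1.76, all 22 endothelial markers from 1.51 to 1.73, macrophage markers from 0.96 to 1.17 and hepatocyte markers from -0.26 to -0.045. Without the 20 highest genes they were 0.17 for pericentral targets, 1.72 for sinusoidal, 1.68 for the 22 and -0.087 for hepatocyte markers. Between diets with 7KC the medians with equal sums were 0.40 for Notch processing (0.21 as deposited), 0.93 for the angiopoietin list (0.72), 0.94 for sinusoidal markers (0.73), 0.90 for markers of all endothelium (0.69), 0.91 for the 22 (0.70) and 0.036 for hepatocyte markers (-0.17). Without the 20 highest genes the last 5 were 0.92, 0.92, 0.88, 0.90 and 0.022. Other endothelial factors had 0.50 instead of 0.90 on WD with a pseudocount of 1, and Wnt ligands 1.197 instead of 0.63 between diets with 7KC with 0.01. Low depth limits Wnt2 and Wnt9b most, where 5.0 reads stand behind the lowest values.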
